A study of Mus musculus with 2 samples.

Results

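The 44 genes described here encode the machinery that copies DNA in S phase. They were taken by symbol from a list of the module's genes, and all 44 were found among the 51826 genes of the expression table. RNA had been measured in 1 library of T29I ES cells and 1 library of wild-type ES cells. Both came from v6.5 cells, a mouse embryonic stem (ES) cell line, and both carry the strain label NBA1-19349. The T29I cells carry a mutation in PRSS1, a gene for a pancreatic trypsinogen, and the labels do not say whether they are 1 clone. Mouse Prss1 was listed at 0 TPM in T29I cells and at 0 TPM in wild-type cells, so its level checks neither label.

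DNA replication starts at origins, which the origin recognition complex (ORC) marks and on which Cdc6 and Cdt1 load the ring-shaped MCM helicase in G1 phase. Cdc45 and the GINS complex then turn the loaded ring into the active helicase, called CMG. Polymerase alpha-primase makes primers, polymerase epsilon extends the leading strand and polymerase delta the lagging strand, both held to DNA by the PCNA clamp. Many of these genes are known targets of E2F transcription factors, and ES cells, which cycle fast with a short G1 phase, express them at high levels.

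TPM, the deposited unit, is an abundance per length. Read estimates came out mostly whole with the merged length of all annotated exons, which can exceed the longest transcript. For Mcm2, whose own read estimates were not whole, these lengths were 6956 and 3494 bases, and for Mcm4 both were 3589. Levels and shares of different genes set side by side within a library thus depend on the length used. They also carry any bias by length or GC content. With 1 library per group nothing is replicated and no p-value is given. The 95% counting intervals rest on estimated reads (15281662 in T29I cells and 16910002 in wild-type cells) and cover counting error only. Ratios were taken as log2 of TPM + 1, T29I to wild-type cells, and their median was -0.90 across 9375 genes averaging 5 TPM or more, a 1.86-fold lower median in T29I cells. "Relative to the shift" means after that median was subtracted, and a gene counted as different was at least 2-fold away from it. An adjusted log2 ratio is the residual after a fit on transcript length and GC content over all expressed protein-coding genes. In bulk RNA, fewer cells that express a gene and less of its RNA per cell cannot be told apart.

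All 44 genes passed the minimum mean of 1 TPM. Of the 44, 15 in T29I cells and 16 in wild-type cells were at or above the 90th percentile of the 12943 genes that passed it, and 2 in T29I cells and 0 in wild-type cells were below the 50th. Subunits of some complexes, such as the MCM ring and polymerase delta, stood in other proportions in T29I cells. In deposited TPM those of RPA changed little, with Rpa2 at 31.4% of RPA RNA in T29I cells and 35.0% in wild-type cells. The log2 ratios of the polymerase delta subunits spanned 2.66 before and 0.92 after adjustment. Those of the RPA subunits spanned 0.36 before and 1.86 after it, so this contrast did not hold after adjustment. As deposited, 38 of the 44 genes had a lower and 6 a higher TPM in T29I cells. Of the 12943 genes, 9249 were lower and 3694 higher. With no shift taken off, the ratio of TPM + 1 was 2-fold or more lower for 21 of the 44, against 45.7% of all genes. It was 2-fold or more higher for 1, Pold2, against 9.97%. Relative to the shift 12 of the 44 were 2-fold or more lower, against 22.2% of all 12943 genes averaging 1 TPM or more. Another 5 of the 44 were 2-fold or more higher, a smaller share than the 26.0% of all genes, and 27 were within 2-fold. The median log2 ratio of the 44 genes relative to the shift was -0.08, against 0.06 over all genes.

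The median level of the 44 genes was 45.1 TPM in T29I cells and 100.4 TPM in wild-type cells. Ranked among the 12943 genes, the median member stood at percentile 81.8 in T29I cells and 87.3 in wild-type cells. The lowest member was Gins3 at 1.84 TPM in T29I cells and Orc4 at 19.5 TPM in wild-type cells. The highest was Pold2 at 522 TPM in T29I cells and Pcna at 466 TPM in wild-type cells. From lowest to highest, levels thus spanned 283-fold in T29I cells and 23.9-fold in wild-type cells. Spearman's rho between the libraries over the 44 levels was 0.83, and over 9100 protein-coding genes it was 0.67. The counting interval of the TPM fold lay below 1 for 35 genes and above 1 for 6, and it spanned 1 for Rpa3, Rfc2 and Orc4. These folds include the shift, and the same count was not made over all genes, so it does not set the members apart.

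**Figure D1:**
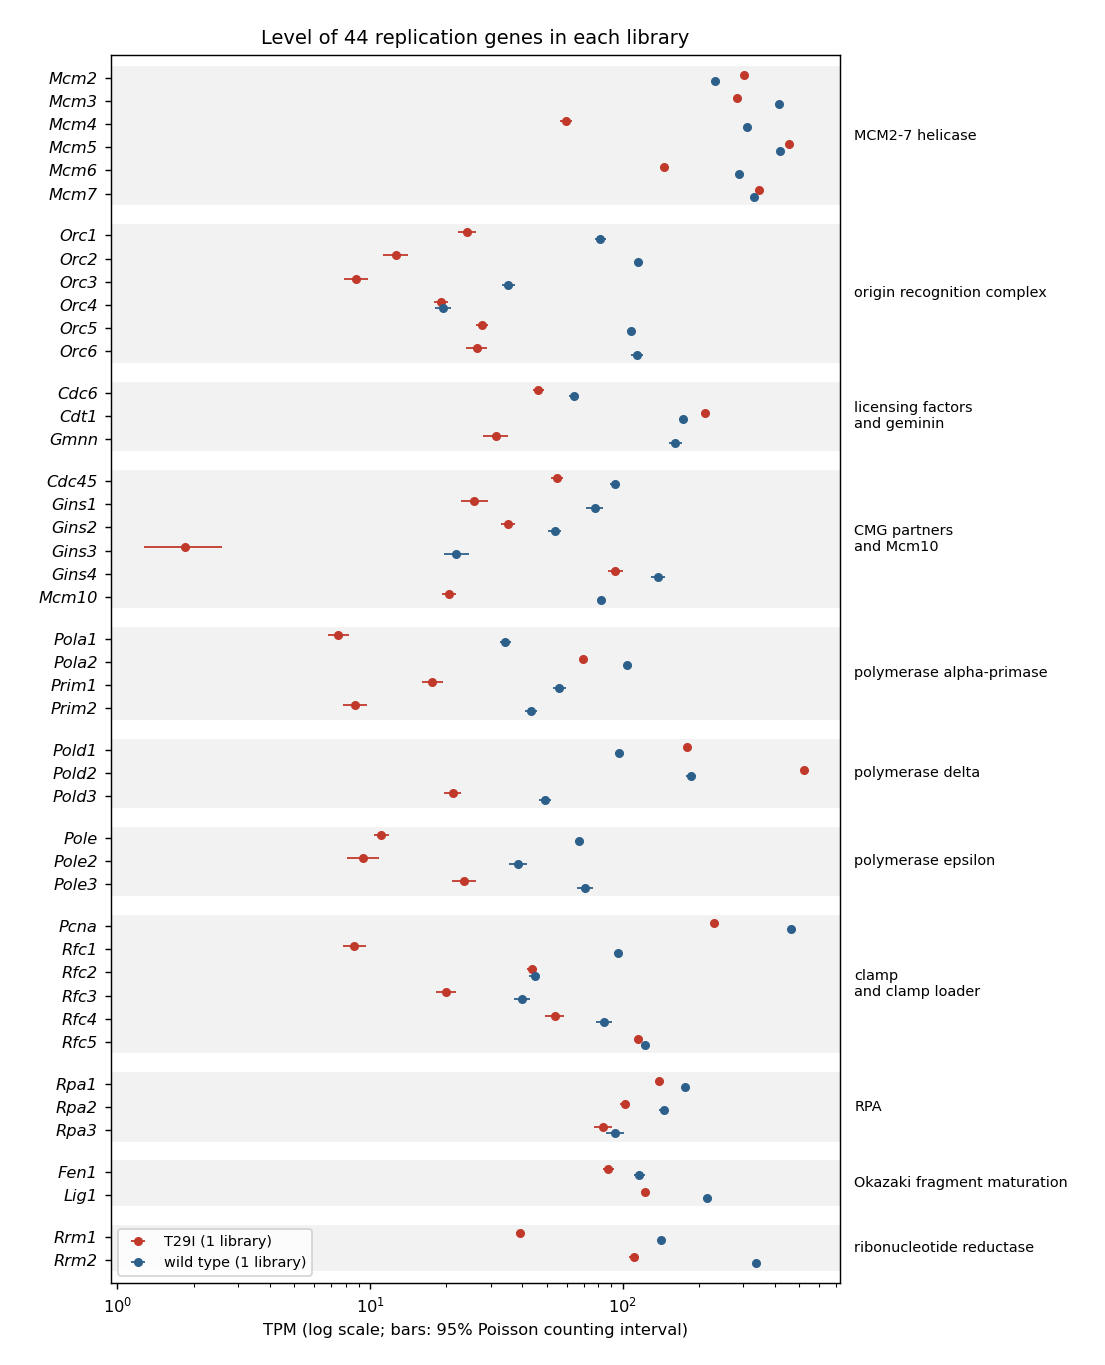
TPM (log axis) of the 44 replication genes in T29I cells (red) and wild-type cells (blue), 1 library each, grouped by role; bars are 95% Poisson counting intervals. The T29I points lie to the left of the wild-type points for 38 genes, farthest for Gins3, Rfc1 and Orc2, and to the right for Mcm2, Mcm5, Mcm7, Cdt1, Pold1 and Pold2. Of all 12943 genes averaging 1 TPM or more, 9249 were lower in T29I cells.

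The start-site sequences of the members at both ends of the range are shown because E2F motifs mark promoters of this gene class. They are RefSeq windows on GRCm38.p6, from 250 bases before to 50 bases after the outermost annotated start, written 5′ to 3′ on the gene's strand. Capitals mark exact matches, on either strand, to the E2F motifs TTTCCCGC, TTTGGCGC, TTTCGCGC and TTTGCCGC. Pold2, Pold1 and Mcm2 had the highest and Rfc1, Orc2 and Gins3 the lowest log2 ratios among members with an entry, and Mcm6 was added after its matches were seen, because it had the most.
Pold2 (chr11:5878207-5878506, minus strand): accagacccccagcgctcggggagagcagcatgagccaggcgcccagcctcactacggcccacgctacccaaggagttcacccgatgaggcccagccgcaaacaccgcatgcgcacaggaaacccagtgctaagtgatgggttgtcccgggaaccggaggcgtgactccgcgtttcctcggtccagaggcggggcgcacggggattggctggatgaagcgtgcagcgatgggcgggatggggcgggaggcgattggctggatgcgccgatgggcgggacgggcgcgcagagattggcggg
Pold1 (chr7:44548766-44549065, minus strand): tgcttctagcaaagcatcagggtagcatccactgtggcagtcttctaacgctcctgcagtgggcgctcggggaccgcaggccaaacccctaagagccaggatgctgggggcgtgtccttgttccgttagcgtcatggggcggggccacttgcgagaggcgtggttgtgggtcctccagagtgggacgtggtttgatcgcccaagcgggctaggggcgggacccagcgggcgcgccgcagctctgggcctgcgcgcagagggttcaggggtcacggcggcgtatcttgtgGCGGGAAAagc
Mcm2 (chr6:88898731-88899030, minus strand): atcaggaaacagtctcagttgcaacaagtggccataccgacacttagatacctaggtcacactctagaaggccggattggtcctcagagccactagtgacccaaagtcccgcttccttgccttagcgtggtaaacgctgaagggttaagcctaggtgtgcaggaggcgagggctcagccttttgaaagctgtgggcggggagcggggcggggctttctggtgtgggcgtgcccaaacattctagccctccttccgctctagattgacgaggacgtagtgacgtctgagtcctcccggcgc
Rfc1 (chr5:65335590-65335889, minus strand): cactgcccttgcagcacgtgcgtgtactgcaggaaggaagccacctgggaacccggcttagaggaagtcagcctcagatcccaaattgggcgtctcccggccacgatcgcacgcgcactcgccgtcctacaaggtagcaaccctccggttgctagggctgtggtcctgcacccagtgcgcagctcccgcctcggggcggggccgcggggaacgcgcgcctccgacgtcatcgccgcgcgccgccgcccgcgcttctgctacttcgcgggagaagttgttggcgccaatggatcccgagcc
Orc2 (chr1:58505060-58505359, minus strand): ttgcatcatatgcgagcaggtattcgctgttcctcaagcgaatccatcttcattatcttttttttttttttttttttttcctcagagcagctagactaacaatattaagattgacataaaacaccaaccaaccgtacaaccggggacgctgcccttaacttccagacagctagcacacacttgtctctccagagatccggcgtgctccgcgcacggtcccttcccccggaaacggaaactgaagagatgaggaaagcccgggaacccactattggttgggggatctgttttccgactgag
Gins3 (chr8:95633309-95633608, plus strand): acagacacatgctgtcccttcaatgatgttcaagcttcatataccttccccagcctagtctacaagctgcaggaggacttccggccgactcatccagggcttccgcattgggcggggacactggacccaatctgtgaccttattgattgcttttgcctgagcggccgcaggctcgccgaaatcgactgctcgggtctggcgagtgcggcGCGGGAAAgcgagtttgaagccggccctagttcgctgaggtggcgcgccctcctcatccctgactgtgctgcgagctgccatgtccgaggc
Mcm6 (chr1:128359656-128359955, minus strand): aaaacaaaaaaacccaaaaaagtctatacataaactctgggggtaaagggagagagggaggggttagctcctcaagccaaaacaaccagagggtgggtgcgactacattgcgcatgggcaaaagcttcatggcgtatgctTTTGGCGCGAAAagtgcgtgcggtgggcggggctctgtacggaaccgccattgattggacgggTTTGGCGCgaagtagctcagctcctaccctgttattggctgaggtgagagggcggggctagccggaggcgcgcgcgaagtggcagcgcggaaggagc

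Of the 44 members 36 had a window, and 14 of these 36 (38.9%) held an E2F match, against 626 of 27025 windows in the whole table (2.32%). Mcm6 had 3 matches, of which 2 overlap on opposite strands, and Mcm3, Mcm5, Mcm7 and Rfc3 had 2 each. An E2F match stood in 3 of 5 windows of the members 2-fold or more above the shift, 3 of 8 of those 2-fold or more below it and 8 of the other 23. The CCAAT box, searched as CCAAT on both strands, was in 22 of the 36 windows (61.1%), against 37.9% of all windows. The cell cycle element CHR, searched as TTTGAA and TTCGAA on both strands, was in 6 (16.7%), against 19.4%. A match describes these letters in this window and says nothing on binding. Both the members that were higher and those that were lower held E2F matches, Pold1 and Gins3 among them.

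The MCM ring, in which 6 related subunits form a helicase of fixed make-up, had unequal subunit RNA in T29I cells. The summed level was 1594 TPM in T29I cells and 1998 TPM in wild-type cells. Mcm2 was at 302 TPM in T29I cells and 232 TPM in wild-type cells, a 1.30-fold higher level (interval 1.27 to 1.34). Mcm5 was at 457 TPM in T29I cells (449 to 465) and 421 TPM in wild-type cells (412 to 429). Mcm7 was at 347 TPM in T29I cells (339.98 to 354) and 332 TPM in wild-type cells (325 to 339.9). These 3 subunits were thus slightly higher in TPM where most genes were lower, with log2 ratios relative to the shift of 1.27, 1.01 and 0.96. Mcm5 and Mcm7 thus stood on either side of the 2-fold line, and Mcm5 fell short of it under other choices of the genes that set the shift (0.96 and 0.99).

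Mcm3 was at 283 TPM in T29I cells and 414 TPM in wild-type cells. Mcm6 was at 146 TPM in T29I cells and 289 TPM in wild-type cells. Mcm4 (chr16:15623897-15637400, minus strand, GRCm38) was at 59.6 TPM in T29I cells (56.5 to 62.7) and 310.03 TPM in wild-type cells (302 to 318), 5.21-fold lower in T29I cells (4.91 to 5.52). It was the only MCM subunit 2-fold or more below the shift. Its share of the summed MCM RNA was 3.74% in T29I cells and 15.5% in wild-type cells, while that of Mcm2 was 18.9% in T29I cells and 11.6% in wild-type cells. The ratio of Mcm2 to Mcm4, a pair chosen after their values were seen, was 5.07 in T29I cells (4.795 to 5.35) and 0.748 in wild-type cells (0.723 to 0.773).

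The order of levels in T29I cells was Mcm5, Mcm7, Mcm2, Mcm3, Mcm6 and Mcm4, and no neighbours in it had overlapping counting intervals. In the wild-type library the order was Mcm5, Mcm3, Mcm7, Mcm4, Mcm6 and Mcm2, with Mcm5 and Mcm3 overlapping. The highest subunit exceeded the lowest 7.68-fold in T29I cells and 1.81-fold in wild-type cells. After adjustment for length and GC content Mcm2 was at 1.20 and Mcm4 at -0.98 (-1.21 with merged exon length), a range of 2.19 against 2.74 before.

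ORC, whose subunits Orc1 to Orc6 bind origins and recruit the loading factors, was the group with the lowest summed level relative to wild type together with polymerase epsilon. It summed to 119 TPM in T29I cells and 473 TPM in wild-type cells. Orc2 (chr1:58462771-58505109, minus strand) was at 12.6 TPM in T29I cells (11.3 to 14.1) and 115 TPM in wild-type cells (110 to 120), 9.11-fold lower in T29I cells (8.10 to 10.3). Orc5, an ATPase-type subunit, was at 27.7 TPM in T29I cells and 108 TPM in wild-type cells. Orc6, the subunit outside the ring of the other 5, was at 26.4 TPM in T29I cells and 114 TPM in wild-type cells. Orc2, Orc5 and Orc6 were 2-fold or more below the shift.

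Orc1, which carries the ATPase needed for loading, was at 24.2 TPM in T29I cells and 81.7 TPM in wild-type cells. Orc3 was at 8.80 TPM in T29I cells and 35.2 TPM in wild-type cells, with a log2 ratio relative to the shift of -0.99, just short of 2-fold. Orc4, another ATPase-type subunit, stood apart at 19.1 TPM in T29I cells (17.9 to 20.3) and 19.5 TPM in wild-type cells (18.1 to 20.9), the only one of the 6 above 0 relative to the shift, at 0.87. It was the lowest of the 6 in wild-type cells and the fourth in T29I cells. The ratio of Orc4 to Orc2, chosen after their values were seen, was 1.51 in T29I cells (1.33 to 1.72) and 0.169 in wild-type cells (0.156 to 0.184). After adjustment Orc2 and Orc6 stayed 2-fold or more lower, at -1.65 and -1.27, Orc4 was higher, at 1.89, and Orc5 was at -0.12.

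Among the licensing factors Cdt1, which brings the MCM ring to ORC, and its inhibitor geminin (Gmnn) differed in opposite directions. Cdt1 was at 212 TPM in T29I cells (205 to 218) and 174 TPM in wild-type cells (168 to 181). Gmnn (chr13:24751845-24761923, minus strand) was at 31.4 TPM in T29I cells (28.0 to 35.1) and 162 TPM in wild-type cells (153 to 171), 5.15-fold lower in T29I cells (4.54 to 5.86). The 2 genes were at nearly the same level in wild-type cells, with overlapping intervals, and far apart in T29I cells. Their ratio, Cdt1 over Gmnn, was 6.73 in T29I cells (5.99 to 7.59) and 1.08 in wild-type cells (1.01 to 1.15). Relative to the shift the log2 ratios were 1.18 for Cdt1 and -1.43 for Gmnn. After adjustment they were 0.12 and -2.07, so the lower Gmnn remained and the higher Cdt1, a gene of 57.8% GC, did not. Cdc6, the ATPase that acts with ORC in loading, was at 46.3 TPM in T29I cells and 64.3 TPM in wild-type cells, with 0.43 against the shift and 0.97 after adjustment.

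Of the CMG partners, Gins3 was the member with the largest fold of all 44. Gins3 (chr8:95633453-95645060, plus strand) was at 1.84 TPM in T29I cells (1.27 to 2.59) and 22.0 TPM in wild-type cells (19.6 to 24.6), 11.9-fold lower in T29I cells (8.31 to 17.6). That T29I value rests on an estimated 33 reads, the fewest of any member. The other GINS subunits were at 25.9 TPM (Gins1), 35.3 TPM (Gins2) and 93.5 TPM (Gins4) in T29I cells. In the wild-type library they were at 77.5 TPM (Gins1), 53.8 TPM (Gins2) and 139 TPM (Gins4). Gins4 and Gins2 were thus near the shift (0.33 and 0.30), while Gins3 was at -2.12 and stayed at -2.14 after adjustment. GINS is a tetramer with 1 copy of each subunit, and the ratio of Gins4 to Gins3 RNA, chosen after the values were seen, was 50.7 in T29I cells (35.8 to 74.1) and 6.30 in wild-type cells (5.54 to 7.19). Cdc45 was at 54.8 TPM in T29I cells and 93.4 TPM in wild-type cells. Mcm10, which helps to activate CMG, was at 20.5 TPM in T29I cells and 82.2 TPM in wild-type cells, 2-fold lower relative to the shift (-1.05) but not after adjustment (-0.46).

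**Figure D2:**
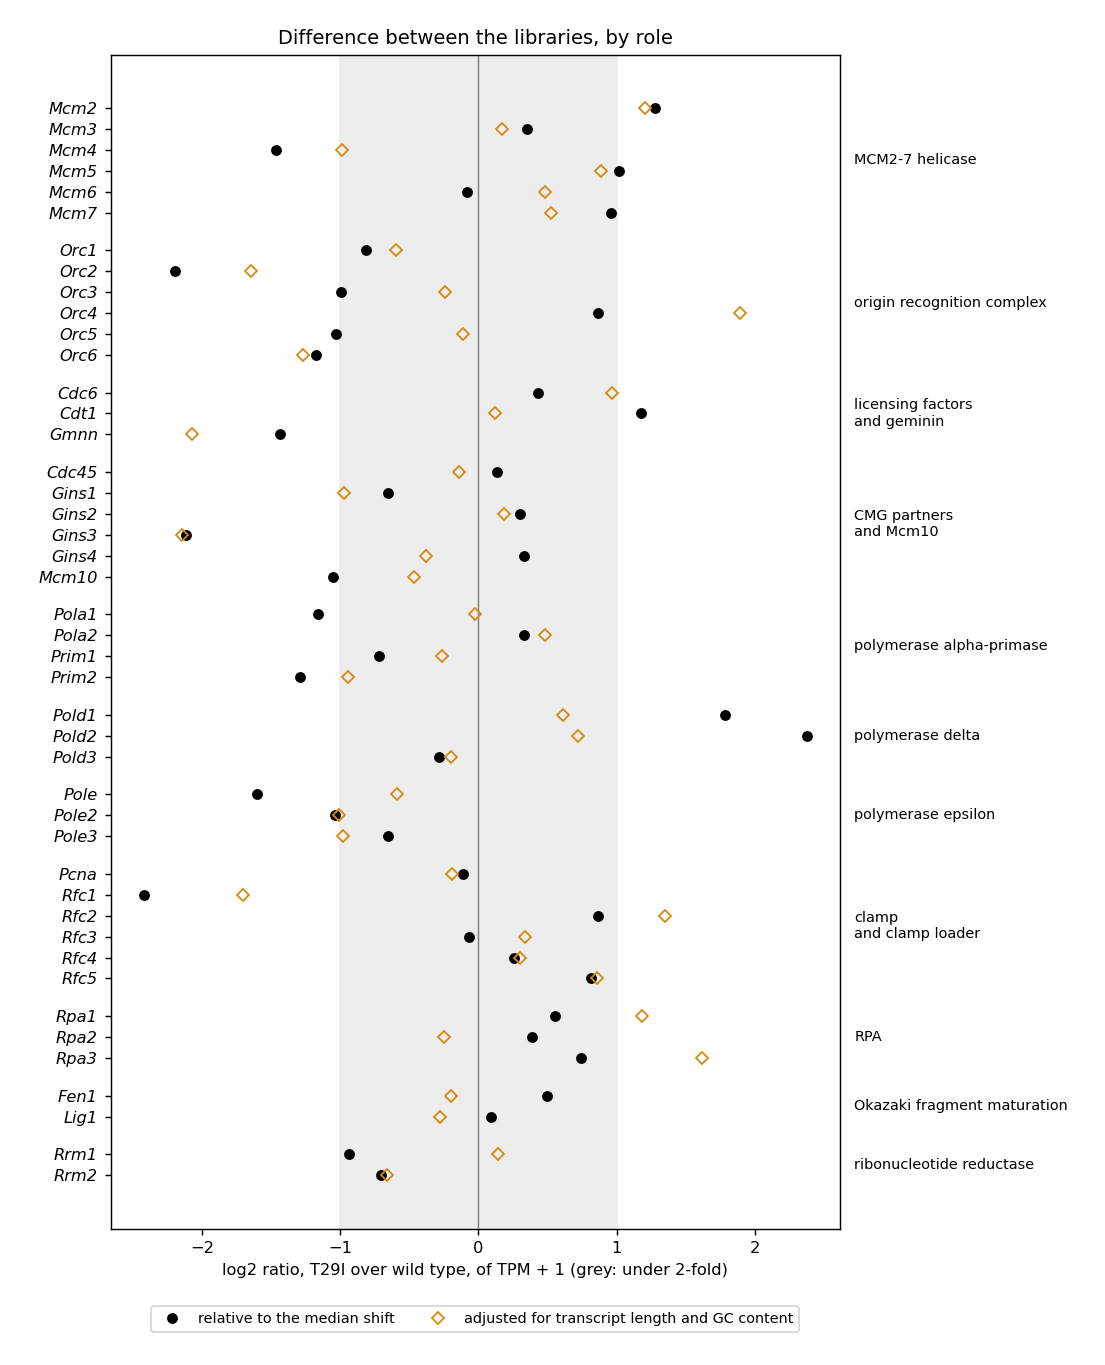
Log2 ratios of TPM + 1, T29I to wild-type cells, for the 44 genes by role, relative to the median shift (filled circles) and after adjustment for transcript length and GC content (open diamonds); the grey band is under 2-fold. Rfc1, Orc2, Orc6, Gins3, Gmnn and Pole2 lie left of the band by both measures and Mcm2 right of it by both, while Pold1, Pold2, Cdt1 and Mcm5 lie right of it only before adjustment.

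Polymerase delta was the one role group of the 44 genes with a higher summed level, 723 TPM in T29I cells and 333 TPM in wild-type cells. Pold2, its B subunit (chr11:5872180-5878292, minus strand), was at 522 TPM in T29I cells (510 to 535) and 187 TPM in wild-type cells (178 to 195), a 2.80-fold higher level (2.66 to 2.95). Pold1, the catalytic subunit, was at 179.6 TPM in T29I cells (175 to 184) and 96.7 TPM in wild-type cells (92.9 to 101), 1.86-fold higher (1.77 to 1.95). Relative to the shift these were the 2 highest of the 44 genes, at 2.37 and 1.78. Pold1 and Pold2 also had the highest GC content of all members, 61.0% and 58.7%, and after adjustment their log2 ratios were 0.61 and 0.72. Pold3, an accessory subunit, went the other way, at 21.2 TPM in T29I cells and 49.3 TPM in wild-type cells (-0.28 against the shift). The ratio of Pold2 to Pold3, chosen after the values were seen, was 24.6 in T29I cells (22.7 to 26.7) and 3.79 in wild-type cells (3.52 to 4.08).

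Polymerase epsilon summed to 44.1 TPM in T29I cells and 177 TPM in wild-type cells, and Pole, Pole2 and Pole3 were all below the shift. A further subunit outside the 44 genes, Pole4, was above it and is given with the other replication genes. Pole, the catalytic subunit, was at 11.1 TPM in T29I cells (10.3 to 11.9) and 67.2 TPM in wild-type cells (65.1 to 69.3), 6.05-fold lower in T29I cells (5.61 to 6.53). Its transcript is the longest of the 44, at 7163 bases, and its log2 ratio was -1.60 against the shift and -0.59 after adjustment. Pole2, the B subunit, was at 9.40 TPM in T29I cells and 38.6 TPM in wild-type cells, and was at -1.01 after adjustment, a call lost when merged exon length replaced the longest transcript (-0.83). Pole3, a histone-fold subunit, was at 23.6 TPM in T29I cells and 71.0 TPM in wild-type cells, with -0.65 against the shift and -0.98 after adjustment. The ratio of the catalytic subunits, Pold1 over Pole, likewise chosen after the values were seen, was 16.2 in T29I cells (15.0 to 17.4) and 1.44 in wild-type cells (1.37 to 1.52).

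In polymerase alpha-primase 3 of 4 subunits were below the shift. Pola1, the catalytic polymerase subunit, was at 7.49 TPM in T29I cells and 34.3 TPM in wild-type cells. Prim2, the large primase subunit, was at 8.73 TPM in T29I cells (7.84 to 9.72) and 43.3 TPM in wild-type cells (41.0 to 45.7). Prim1, the catalytic primase subunit, was at 17.6 TPM in T29I cells and 56.1 TPM in wild-type cells. Pola1 and Prim2 were 2-fold or more below the shift (-1.16 and -1.29), and neither was after adjustment (-0.03 and -0.94). Pola2, the B subunit, was at 69.8 TPM in T29I cells and 104 TPM in wild-type cells, and was the highest of the 4 in both libraries.

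**Figure D3:**
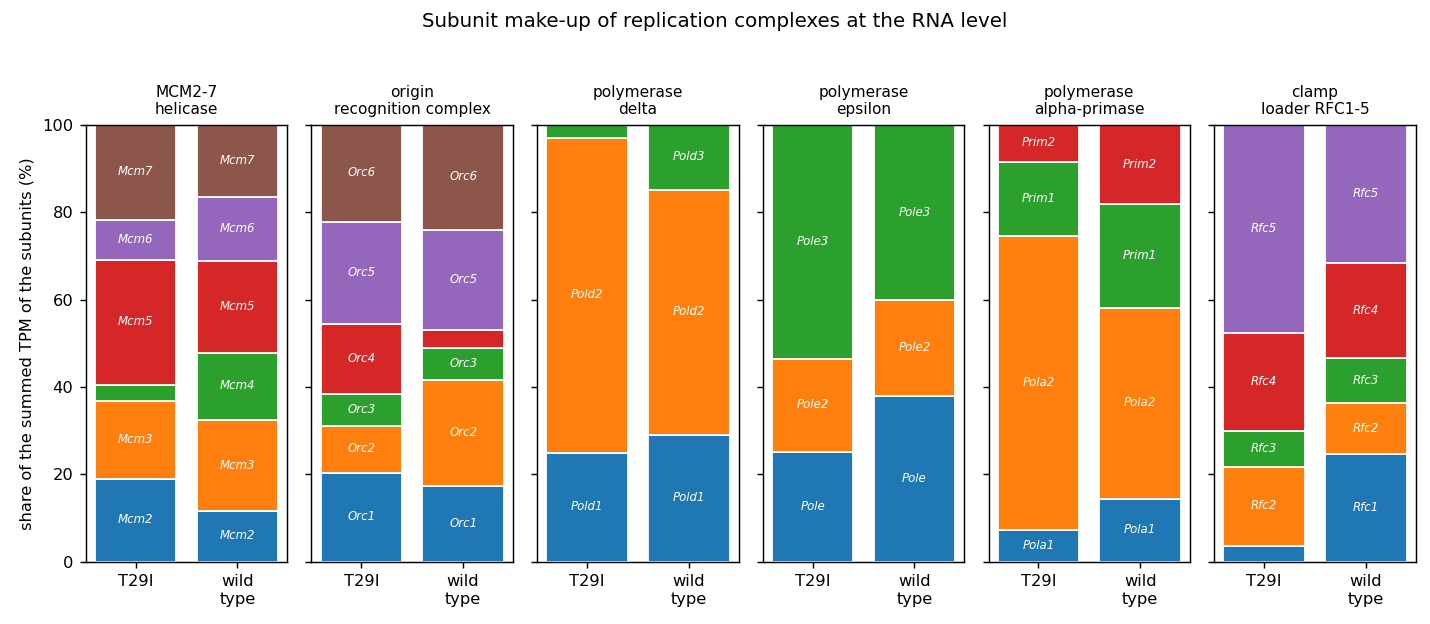
Share of each subunit in the summed TPM of its complex, T29I cells left and wild-type cells right in each panel; segments under 5% carry no name. Mcm4 made up 3.74% of MCM RNA in T29I cells and 15.5% in wild-type cells, Pold3 made up 2.93% of polymerase delta RNA in T29I cells and 14.8% in wild-type cells, and Rfc1 3.59% of RFC RNA in T29I cells and 24.7% in wild-type cells.

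Rfc1, the large subunit of the clamp loader that opens the PCNA ring, had the lowest log2 ratio of the 44 genes relative to the shift with a pseudocount of 1 TPM, while with 0.1 TPM (-2.51, against -2.57) or after adjustment Gins3 was lower. Rfc1 (chr5:65261850-65335670, minus strand) was at 8.67 TPM in T29I cells (7.78 to 9.64) and 95.4 TPM in wild-type cells (92.0 to 98.9), a T29I level 0.0909 times that of wild type (0.0811 to 0.102). Relative to the shift this was -2.42, and -1.70 after adjustment. The small subunits Rfc2 and Rfc5 were at 43.9 and 115 TPM in T29I cells and at 44.8 and 122 TPM in wild-type cells. Rfc3 was at 19.95 TPM in T29I cells and 39.9 TPM in wild-type cells, and Rfc4 at 53.9 TPM in T29I cells and 84.4 TPM in wild-type cells. Rfc1 was second among the 5 RFC genes in wild-type cells and last in T29I cells. The ratio of Rfc2 to Rfc1, chosen after the values were seen, was 5.06 in T29I cells (4.50 to 5.69) and 0.469 in wild-type cells (0.441 to 0.4998).

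Pcna itself, the sliding clamp, was at 231 TPM in T29I cells (223 to 238) and 466 TPM in wild-type cells (454 to 478), at the shift (-0.11). Its value is uncertain because of a processed pseudogene, Pcna-ps2 (chr19:9283380-9284160, plus strand), whose 781 bases align to the Pcna transcript (chr2:132249162-132253314, minus strand) with 6 mismatches and no gap, 99.2% identity. The longest stretch without a mismatch is 246 bases. The stretch of 90 bases with the most mismatches, 2, is shown here from GENCODE M21 with the mismatches in capitals, because within the aligned part reads tell the pair apart only at such bases.
Pcna (transcript bases 366 to 455): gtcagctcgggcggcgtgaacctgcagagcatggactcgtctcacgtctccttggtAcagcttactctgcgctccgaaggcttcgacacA
Pcna-ps2 (transcript bases 87 to 176): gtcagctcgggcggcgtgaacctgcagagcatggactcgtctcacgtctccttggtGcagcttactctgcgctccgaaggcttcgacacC

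Pcna-ps2 was at 0.723 TPM in T29I cells and 169 TPM in wild-type cells. In estimated reads it had 4 and Pcna 3659 in T29I cells, against 685 and 5802 in wild-type cells. The pseudogene thus took 0.109% of the pair's reads in T29I cells (exact binomial interval 0.0298% to 0.279%) and 10.6% in wild-type cells (9.82% to 11.3%). These read estimates were not whole numbers for Pcna-ps2, so they are approximate. Which of the genes the reads came from was not tested, and the treatment of reads that map to both was not among the details in the labels. With the pair taken as 1 feature, the log2 ratio of Pcna relative to the shift was -0.27.

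The RPA complex, which coats single-stranded DNA, had no subunit 2-fold from the shift. Rpa1 was at 139 TPM in T29I cells and 177 TPM in wild-type cells, Rpa2 at 102 TPM in T29I cells and 146 TPM in wild-type cells, and Rpa3 at 83.7 TPM in T29I cells and 93.3 TPM in wild-type cells. All 3 were above the shift by 0.38 to 0.74, under 2-fold, and kept the order Rpa1, Rpa2, Rpa3 in both libraries. After adjustment Rpa1 and Rpa3 were at 1.18 and 1.62 and Rpa2 was at -0.25. Rpa3 has the shortest transcript (682 bases) and the lowest GC content (34.2%) of the 44 genes.

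The enzymes that finish Okazaki fragments were near the shift. Fen1, the flap endonuclease, was at 87.9 TPM in T29I cells and 116 TPM in wild-type cells, and Lig1, the ligase, at 123 TPM in T29I cells and 215 TPM in wild-type cells. Ribonucleotide reductase, which supplies deoxynucleotides, was lower in TPM in both subunits, Rrm1 more so than Rrm2. Rrm1, the large subunit, was at 39.3 TPM in T29I cells and 142 TPM in wild-type cells. Rrm2, the small subunit, was at 111 TPM in T29I cells (106 to 116) and 338 TPM in wild-type cells (328 to 347). The ratio of Rrm2 to Rrm1 was 2.82 in T29I cells (2.66 to 2.99) and 2.38 in wild-type cells (2.29 to 2.46). Their log2 ratios relative to the shift were -0.70 for Rrm2 and -0.93 for Rrm1, and after adjustment -0.66 and 0.14.

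Log2 ratios among the 44 genes varied with GC content. Spearman's rho of the log2 ratio with the GC content of the longest transcript was 0.54 over the 44 genes and 0.56 over 9100 protein-coding genes, as a description, since all points share both libraries. With transcript length it was -0.06 over the 44 genes and -0.53 over the protein-coding genes. The 5 members 2-fold or more higher had a median GC content of 57.8% (51.7% to 61.0%), and the 12 that were lower to that extent one of 45.5% (38.2% to 50.6%). Those 2 ranges did not overlap. After adjustment 6 members were 2-fold or more lower, against 15.5% of all genes, and 5 were higher to that extent, against 17.6%. Rfc1, Orc2, Orc6, Gins3, Gmnn and Pole2 were lower by both measures, though Pole2 not with merged exon length, and Mcm2 was higher by both. The adjustment takes out any true difference that follows GC content or length along with bias.

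**Figure D4:**
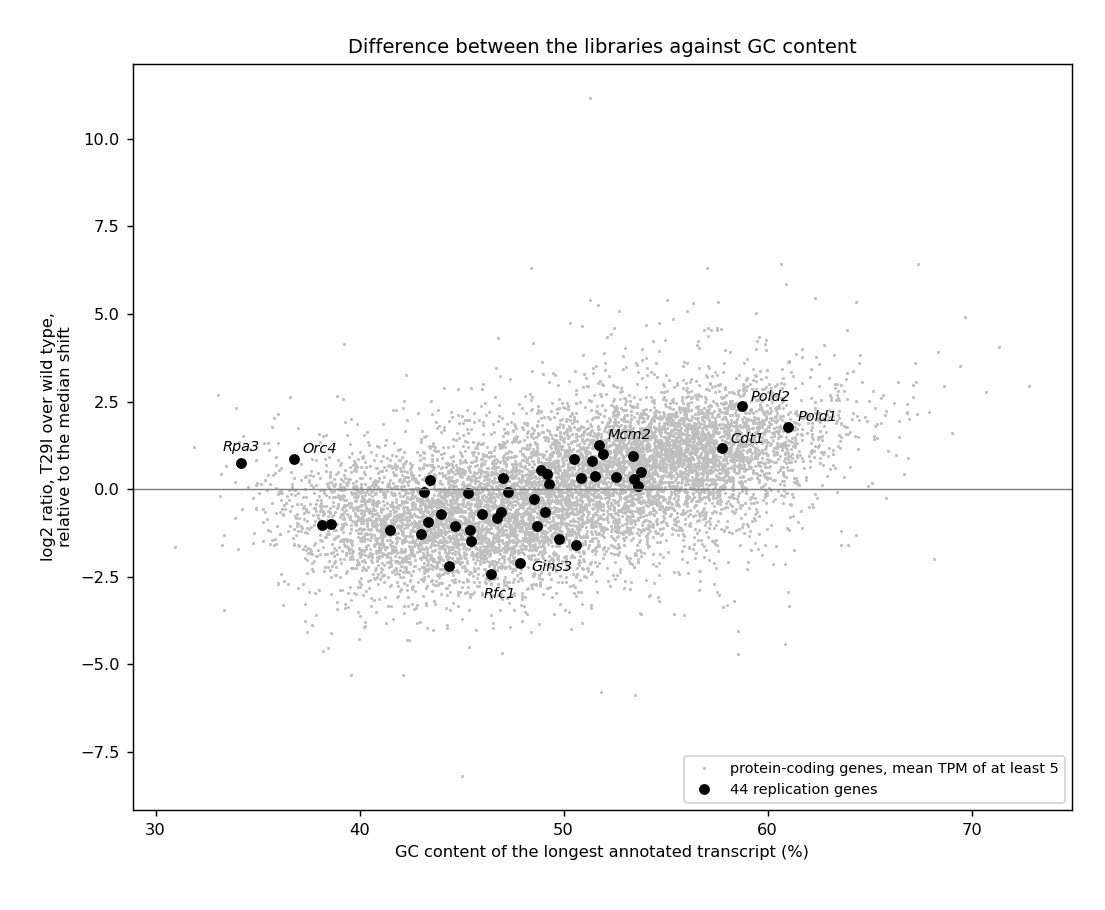
Log2 ratios, T29I to wild-type cells, relative to the median shift plotted against GC content (%) of the longest annotated transcript, for 9100 protein-coding genes (grey) and the 44 replication genes (black). Pold1, Pold2 and Cdt1 lie at the GC-rich end inside the grey cloud, and Rpa3 and Orc4 lie above 0 at the GC-poor end.

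A list of 55 other replication genes, 1 of which (Top2a) is also a proliferation marker, covered further helicase, firing, fork and nucleotide genes and the E2F factors. Relative to the shift 18 of them were lower by 2-fold or more, beside 22.2% of all genes, and 8 higher, beside 26.0%, with a median of -0.61. After adjustment 14 were lower, beside 15.5% of all genes, and 5 higher, beside 17.6%, with a median of -0.09. Among the 5 lowest, Topbp1, a scaffold for CMG assembly, was at 6.62 TPM in T29I cells and 90.5 TPM in wild-type cells. Ticrr, which encodes the firing factor treslin, was at 7.30 TPM in T29I cells and 73.8 TPM in wild-type cells. Atad5, which takes PCNA off DNA, was at 2.79 TPM in T29I cells and 36.0 TPM in wild-type cells. Dna2, a nuclease of Okazaki fragment maturation, was at 5.92 TPM in T29I cells and 56.2 TPM in wild-type cells. E2f8, a repressor of the E2F family, was at 5.67 TPM in T29I cells and 59.4 TPM in wild-type cells. After adjustment Topbp1, Ticrr, Dna2 and E2f8 stayed 2-fold or more lower (-1.85, -1.28, -1.81 and -2.14), while Atad5 was at -0.88.

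The highest of that list included small subunits of the polymerases. Pold4 was at 16.8 TPM in T29I cells and 6.77 TPM in wild-type cells, and Pole4 at 61.5 TPM in T29I cells and 48.4 TPM in wild-type cells. Tk1, the thymidine kinase of S phase, was at 83.1 TPM in T29I cells and 40.1 TPM in wild-type cells. The RNase H2 subunits Rnaseh2a and Rnaseh2c were at 91.2 and 80.2 TPM in T29I cells and at 59.2 and 39.6 TPM in wild-type cells. After adjustment Tk1, Pole4 and Rnaseh2a stayed 2-fold or more higher (1.497, 1.38 and 1.003), while Pold4 and Rnaseh2c were at 0.35 and 0.11.

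Other markers moved with these values, and their part in the results was not tested. All 9 ES cell markers were above 1 TPM in both libraries and summed to 5032 TPM in T29I cells and 6168 TPM in wild-type cells, with Pou5f1 at 1454 TPM in T29I cells and 1722 TPM in wild-type cells. They did not move alike: Zfp42 was at 23.3 TPM in T29I cells and 544 TPM in wild-type cells, Nanog at 140.3 TPM in T29I cells and 765 TPM in wild-type cells, and Utf1 at 2459 TPM in T29I cells and 972 TPM in wild-type cells. Zfp42 and Nanog were 2-fold or more lower against the shift (-3.59 and -1.54) and after adjustment (-3.69 and -1.48), while Utf1 was at 2.23 against the shift and -0.40 after adjustment. Of 7 markers of proliferation, 3 were lower and 1 was higher by 2-fold or more relative to the shift, beside 22.2% and 26.0% of all genes, and after adjustment Mki67 alone kept its call (-2.13). Their sum was 650 TPM in T29I cells and 1292 TPM in wild-type cells. Mki67, the lowest of the 7 relative to the shift, was at 3.48 TPM in T29I cells and 129 TPM in wild-type cells. Plk1, the higher one, was at 298 TPM in T29I cells and 247 TPM in wild-type cells. Aurkb was at 73.3 TPM in T29I cells and 81.0 TPM in wild-type cells. Of 5 cell cycle inhibitor genes, 4 were 2-fold or more above the shift, beside 26.0% of all genes. After adjustment 2 were, Cdkn1a and Cdkn1c, beside 17.6%. One of the 4, Cdkn2b, was at 1.30 TPM in T29I cells and 1.11 TPM in wild-type cells, and passed only because the shift was taken off. The 5 genes had a sum of 183 TPM in T29I cells and 69.5 TPM in wild-type cells. Cdkn1c and Cdkn1a were at 103 and 60.4 TPM in T29I cells and at 19.2 and 28.5 TPM in wild-type cells. Cdkn1b went the other way in TPM, at 7.71 TPM in T29I cells and 18.5 TPM in wild-type cells (-0.27 against the shift and 0.61 after adjustment). Trophoblast markers summed to 876 TPM in T29I cells and 119 TPM in wild-type cells. Of the 4 that averaged 1 TPM or more, 3 (Krt8, Krt18 and Hand1) were higher by 2-fold or more on both scales. The shares of all genes were 26.0% relative to the shift and 17.6% after adjustment. In T29I cells Krt8 and Krt18 were the highest trophoblast markers, at 389 and 353 TPM, against 28.6 and 15.4 TPM in wild-type cells. Tfap2c, the remaining one of the 4, went the other way in TPM. It was at 53.1 TPM in T29I cells and 73.4 TPM in wild-type cells, where it was the highest of these markers. Its log2 ratio was 0.44 against the shift and 0.09 after adjustment. Cdx2 was at 0.402 TPM in T29I cells and 0.256 TPM in wild-type cells. The 8 feeder fibroblast markers summed to 19.7 TPM in T29I cells and 7.16 TPM in wild-type cells, most of it Thy1, and Lum was at 0 in both. The 8 erythroid markers summed to 11.4 TPM in T29I cells and 1.53 TPM in wild-type cells, with Alas2 and Epb42 at 0 in T29I cells and Hba-a1, Hbb-bt and Hbb-y at 0 in wild-type cells.

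For 10 of the 44 genes the longest transcript matched another annotated gene over at least 300 bases at 95% identity or more. In 5 of these the partner lies on the opposite strand (Fen1, Gins2, Orc2, Orc4 and Rfc2), and the labels do not say whether the counting used strand. The longest such overlap was between Gins2 and Gse1, 2758 bases, where Gse1 was at 7.55 TPM in T29I cells and 16.4 TPM in wild-type cells. The other 5 were processed pseudogenes. Those of Cdc6, Rfc5 and Rrm2 were listed at 0 in both libraries, and that of Mcm7 was not analysed here. Values of these members are uncertain to that extent.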

How the data were processed

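RNA had been extracted with Isogen and made into stranded TruSeq libraries after Ribo-Zero depletion, per the labels' protocols. The authors deposited TPM values per gene for 1 T29I and 1 wild-type library, and each column sums to 1000000. For the aligner, counter, build and annotation nothing was given in the sources used here. Members and lists were chosen with earlier results of these data known.

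Gene IDs were matched to GENCODE M21 on GRCm38 (51633 of 51826). TPM times merged exon length, divided by the value of 1 read, was whole within 0.05 for 81.3% of T29I and 83.7% of wild-type values up to 1000 estimated reads, against 10% by chance, and gave the estimated reads. Of the 44 members 35 and 37 came out whole, in that order. Those of Mcm2, Pole, Orc5, Rrm1, Cdc45, Rfc4 and Pola2 were whole in neither library, and those of Mcm3 and Prim2 not in T29I cells. Counting intervals of these genes, and of ratios that include them, are thus approximate. Fold intervals are exact conditional binomial intervals, and level intervals exact Poisson intervals. No count model was fitted, because TPM is not a count and 1 library per group leaves no spread.

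Log2 ratios used a pseudocount of 1 TPM. The shift was the median over genes averaging 5 TPM or more. The adjustment was a quadratic fit with interaction on log2 length and GC content over 9100 protein-coding genes. It was tried on simulated data with a linear GC bias and no length bias, so its length part was not tested. All members were to be described, with full values for the 6 highest and 6 lowest ratios, Mcm2 to Mcm7, Pcna, Cdc6, Cdt1, Gmnn, Rrm1 and Rrm2. Copies were searched with BLAST 2.17.0, and the rest was computed in Python 3.11.15 with NumPy 2.4.6, pandas 2.3.3 and SciPy 1.17.1.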

Additional observations from a re-analysis of the deposited data

How the results depend on the processing

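With no shift taken off, 21 members were 2-fold or more lower and 1 (Pold2) higher, with a median log2 ratio of -0.97. After adjustment for length and GC content 6 members were lower, and 7 when merged exon length replaced the longest transcript, where Pole2 (-0.83) dropped out and Mcm4 (-1.21) and Pole3 (-1.03) came in. Of the 5 members higher after adjustment, Rpa1 gave way to Pola2 with merged exon length. All 6 of the first adjustment were among the 12 lower members of the unadjusted count, whereas only Mcm2 was among the 5 higher ones. With merged exon length Orc5 and Pola1 turned to 0.0084 and 0.056. A shift from genes averaging 1 TPM or more or from protein-coding genes alone, a pseudocount of 0.1 TPM, and Pcna joined with Pcna-ps2 kept all 12 lower members and the sign of all 44. Orc3 joined the lower members under both shifts (-1.05 and -1.01) and with the lower pseudocount (-1.05), making 13 each time. Among the higher members Mcm5 fell short under both shifts (0.96 and 0.99, leaving 4), and Mcm7 came in with the lower pseudocount (1.0001, making 6). No replicate could be left out, since each group has 1 library. For the same reason no paired analysis was possible, and the labels carry no replicate numbers. Depth limits Gins3 most, with 33 estimated reads in the T29I library.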
